A study of Drosophila melanogaster with 4 samples.

Results

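Long stretches of the Drosophila melanogaster genome in which no H3K36me3 region was called were described in wild-type embryos. H3K36me3 is histone H3 trimethylated at lysine 36, and it was mapped by chromatin immunoprecipitation and sequencing (ChIP-seq). The stretches were chosen by the called regions themselves: the regions of both ChIP replicates were merged on the arms 2L, 2R, 3L, 3R and X and on chromosome 4, and every space of 100 kb or more between neighbouring merged regions was taken. This gave 251 long stretches among 4071 stretches between merged regions. The 4 libraries are 2 ChIP and 2 input libraries, all from the Oregon-R strain (Oregon-R-modENCODE) at 14 to 16 h of embryonic development, with no mutation and no treatment. Each ChIP library has a region list, and a further list belongs to the whole series. The input libraries have no list of their own and were not analysed here. The labels leave unsaid whether the replicates are separate collections of embryos, and their spread may be technical.

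In flies, the methyltransferase Set2 travels with elongating RNA polymerase II and trimethylates lysine 36 of histone H3 along genes as they are transcribed. The mark therefore lies over the bodies of active genes, mostly towards their 3′ ends, and on the male X chromosome it is a docking site of the dosage compensation complex. Fly chromosomes are also known to carry long blocks of silent chromatin rich in genes used in few tissues, among them the Polycomb domains, which carry H3K27me3. Which genes lie in the stretches described here was not analysed, because coordinates refer to FlyBase release 5 and the gene table at hand is placed on release 6. For the same reason no sequence is shown.

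The 251 long stretches made up 6.17% of all stretches between merged regions and held 46.7% of the bases in such stretches. They added up to 45.2 Mb, or 37.6% of the 120.4 Mb of the 6 chromosomes and arms. Their median length was 160.2 kb, and the middle of the distribution ran from 127.4 kb at the lower quartile to 203.5 kb at the upper quartile. A stretch between merged regions was usually far shorter, with a median of 5576 bp over all 4071. Of the long stretches, 149 reached 150 kb, 67 reached 200 kb, 28 reached 250 kb, 18 reached 300 kb and 9 reached 400 kb. The 67 stretches of 200 kb or more held 41.2% of the bases in long stretches, and the 10 longest held 9.98%. Stretches that passed 100 kb went on for another 80.1 kb on average, those that passed 150 kb for 68.7 kb, 200 kb for 78.1 kb, 250 kb for 104.5 kb, 300 kb for 100.2 kb and 400 kb for 61.5 kb, with no steady trend and, at the last, only 9 stretches.

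The 100 kb threshold fell within a continuous range of lengths. There were 37 stretches of 90 to 100 kb and 23 of 100 to 110 kb. The shortest member, on X between 17818731 and 17919131, measured 100401 bp, and the next shortest were 100904 bp on 2L (10863016 to 10963919) and 101123 bp on 3L (2266110 to 2367232). Just outside lay stretches of 99803 bp on 3R (16688766 to 16788568), 99777 bp on X (18286762 to 18386538) and 99563 bp on 2R (16764206 to 16863768). The members just inside and the stretches just outside thus differed by less than 2 kb.

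The arms carried unequal numbers of long stretches of like size. There were 56 on 2L and 56 on X, 61 on 3R, 46 on 3L and 32 on 2R, which came to 2.43 per Mb on 2L, 2.50 on X, 2.19 on 3R, 1.87 on 3L and 1.51 on 2R. The median length was 155.2 kb on 2L, 155.8 kb on X, 157.4 kb on 2R, 158.6 kb on 3R and 176.9 kb on 3L. The arms differed more in their longest stretches than in their medians. On 2L, 20 of 56 reached 200 kb (35.7%), against 14 of 46 on 3L (30.4%), 9 of 32 on 2R (28.1%), 13 of 56 on X (23.2%) and 11 of 61 on 3R (18.0%). In all, long stretches took up 45.6% of 2L and 27.6% of 2R, the highest and lowest shares of the large arms, a span of 18.1 percentage points. Chromosome 4, a small and largely heterochromatic chromosome with active genes, had none, and its longest stretch without a region was 60.1 kb.

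**Figure D1:**
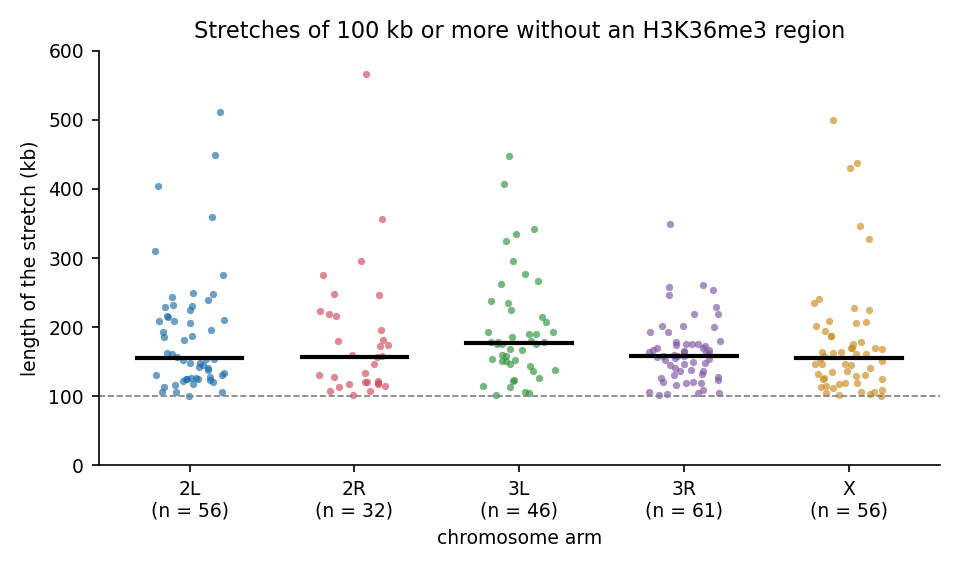
Length of each of the 251 long stretches in kb (vertical axis, linear, from 0) by chromosome arm; points are stretches, spread sideways at random, black bars are medians and the dashed line is the 100 kb threshold. Medians lie between 155.2 and 176.9 kb, and the longest stretch of each arm lies between 349.2 kb on 3R and 566.1 kb on 2R.

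Along the arms the long stretches were spread unevenly. Each large arm was divided into 10 equal parts of 2.11 to 2.79 Mb, counted from the telomere. Over the 50 parts the share of bases in long stretches ran from 10.4% to 79.6% with a median of 35.3%. It exceeded 50% in 10 parts and was under 20% in 4. The highest share, 79.6%, was in the seventh part of 2L, from 13806927 to 16108080, where regions covered 7.29% of bases in replicate 1 and 6.81% in replicate 2 and only 31 merged regions lay in 2.30 Mb. Its neighbours, the sixth and eighth parts, were in long stretches to 60.9% and 61.4%, so that these 3 neighbouring parts of 2L, from 11505773 to 18409235, formed a broad zone of few regions. The fifth part, just distal of it, was in long stretches to only 28.6% and held 91 merged regions, the most of any part of 2L.

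The part nearest the centromere differed between arms. It was in long stretches to 77.0% on X and 66.9% on 3L, against 46.7% on 2L, 37.5% on 3R and 17.4% on 2R. On X this part held 43 merged regions, with 9.77% of bases covered in replicate 1 and 8.89% in replicate 2. On 3L it also held 43 merged regions, with 7.79% and 6.21% of bases covered, whereas the part beside it had the lowest share in long stretches of all (10.4%) with 110 merged regions. How much of the sequence near centromeres reads could be placed on was not analysed here, so its part in these values was not tested. Parts nearest the telomere had shares from 20.7% on 2R to 42.7% on 2L. The space from an arm's end to its first or last region is not a member by the rule, and in 1 place it exceeded 100 kb, before the first region of 3L (141.2 kb).

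**Figure D2:**
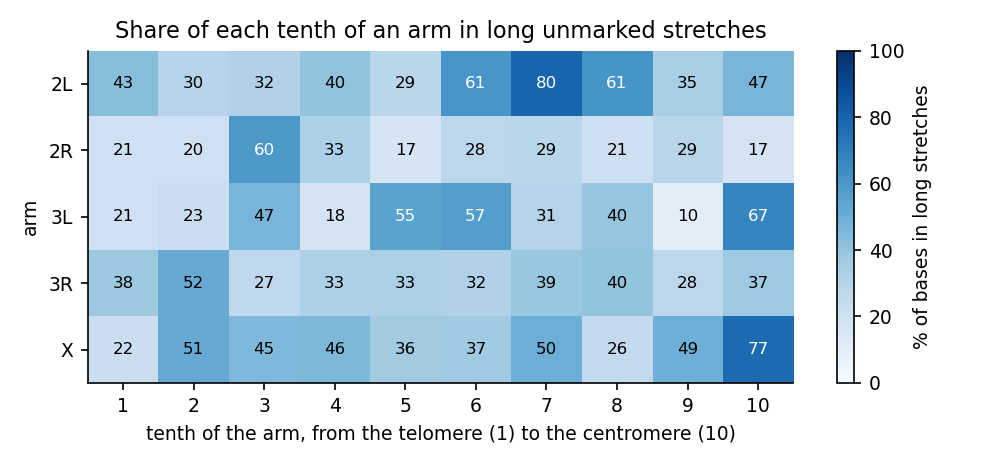
Percent of bases in long stretches (colour and printed value) for 10 equal parts of each of the 5 large arms, from the telomere (1) to the centromere (10). The seventh part of 2L (79.6%) and the last parts of X (77.0%) and 3L (66.9%) stand highest, and the ninth part of 3L (10.4%) lowest.

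The longest stretch lay on 2R from 15562259 to 16128400. It measured 566142 bp in the merged lists, 566142 bp between the regions of replicate 1 alone and 566513 bp between those of replicate 2 alone. The next lay on 2L from 14493929 to 15005308, with spaces of 511380 bp in replicate 1 and of 512088 bp in replicate 2. The stretch after these lay on X from 20396279 to 20896038, with 499760 bp and 500062 bp. In these 3 the replicates placed the stretch within 1 kb of the same length.

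The fourth was on 2L from 16918268 to 17367041, where the space was 448774 bp in replicate 1 and 450407 bp in replicate 2. On 3L the longest stretch ran from 18163460 to 18611256, with 447797 and 448141 bp. The longest on 3R, which is not among the 10 longest, ran from 23794155 to 24143378 (349.2 kb). The sixth in length, on X from 21945176 to 22383188, differed between lists, because its right neighbour was called in replicate 2 alone. Replicate 2 left a space of 438218 bp there and replicate 1 a space of 467770 bp.

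The other members of the 10 longest lay on X from 11922652 to 12352753 (430.1 kb), on 3L from 22298057 to 22705683 (407.6 kb), on 2L from 15771086 to 16175047 (404.0 kb) and on 2L from 21762347 to 22121415 (359.1 kb). Of the 10, 4 were on 2L, 3 on X, 2 on 3L and 1 on 2R. On 2L, 3 of them lay between 14493929 and 17367041, and 2 of those on X lay in its last 2.24 Mb.

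The regions that closed the longest stretches ranged from strong to weak by the deposited score, whose scale is not stated and which is read here only within a list. Beside the 566 kb stretch on 2R lay regions of 4034 bp (score 1.603 in replicate 1 and 1.586 in replicate 2) and 4399 bp by replicate 1 (score 2.02 and 1.82). The 511 kb stretch on 2L had a weak region of 2003 bp in replicate 1 on its left (score 0.528 in replicate 1 and 0.799 in replicate 2) and one of 7541 bp on its right (1.602 and 1.533). Beside the 500 kb stretch on X were regions with scores of 1.84 and 2.04 on the left and 1.46 and 1.41 on the right. The 449 kb stretch on 2L lay between regions of 8140 and 7914 bp in replicate 1, with scores of 1.94 and 1.63 there and 1.89 and 1.67 in replicate 2. On 3L the 448 kb stretch had neighbours of 2984 bp (0.652 and 0.684) and 3148 bp (1.19 and 1.20). Median scores over the 5 large arms were 1.57 in each replicate, so these neighbours fell on both sides of the median.

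Both replicates were used to choose the stretches, so their likeness is a description and no independent support. Replicate 1 alone had 253 stretches of 100 kb or more and replicate 2 alone 267, on average 260 ± 9.90 (SD, n = 2), taking up 37.9% and 40.6% of the chromosomes, on average 39.2% ± 1.85 (SD, n = 2). In replicate 1 each of the 251 members lay in a stretch of its own, and 2 further stretches held none. In replicate 2, 249 stretches held 1 member, 1 held 2 members and 17 held none. Taken in 1 replicate alone, 152 of the 251 members had exactly the same length in replicate 1 and 18 in replicate 2. The space in replicate 2 was longer than the member by a median of 268 bp, and by more than 10 kb for 26 members, against 5 members in replicate 1.

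Most sides of the long stretches were set by regions found in both replicates. Of the 502 sides, 454 (90.4%) ended at a merged region with bases from both replicates, 43 at a region of replicate 1 alone and 5 at a region of replicate 2 alone. Both sides were of the first kind for 209 members, 1 side for 36 and neither for 6. Sides of shorter stretches ended at a region of a single replicate in 6.14% of cases for stretches under 10 kb, 8.85% for 10 to 50 kb and 11.8% for 50 to 100 kb, against 9.51% for 100 to 200 kb and 9.70% for 200 kb or more. Where both replicates had the neighbour, their edges lay a median of 125 bp apart, and within 500 bp of each other at 426 of 454 sides. Replicate 1 reached further into the stretch at 342 of these sides (75.3%) and replicate 2 at 112, with a median shift of 85 bp. Edges at the sides of shorter stretches were not compared, so these values are not particular to long stretches. Away from long stretches, too, regions of replicate 1 were wider, with a median of 4677 bp against 4297 bp in replicate 2.

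Between consecutive long stretches on an arm there were 246 intervals that carried regions. Their median length was 181.6 kb, with quartiles at 61.5 and 397.6 kb, and they held a median of 10 merged regions. Together these intervals spanned 70.7 Mb, of which merged regions covered 31.0%. Intervals were shortest on X (median 134.0 kb) and 2L (141.1 kb), longer on 3L (181.6 kb) and 3R (208.5 kb), and longest on 2R (357.0 kb). Of the 246, 84 (34.1%) were under 100 kb, 44 were 500 kb or more and 8 were 1 Mb or more.

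The 5 longest intervals free of a long stretch lay on 3L from 7504027 to 9135302 (1631 kb, 66 merged regions), on 2R from 10636194 to 12235050 (1599 kb, 68), on 2R from 19406561 to 20963197 (1557 kb, 93), on 2R from 4754578 to 6210625 (1456 kb, 77) and on 3L from 20760324 to 22072032 (1312 kb, 60). Merged regions covered between 23.6% and 33.7% of them. Regions there reached scores of 2.31 to 2.60 in replicate 1 and 2.28 to 2.70 in replicate 2.

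**Figure D3:**
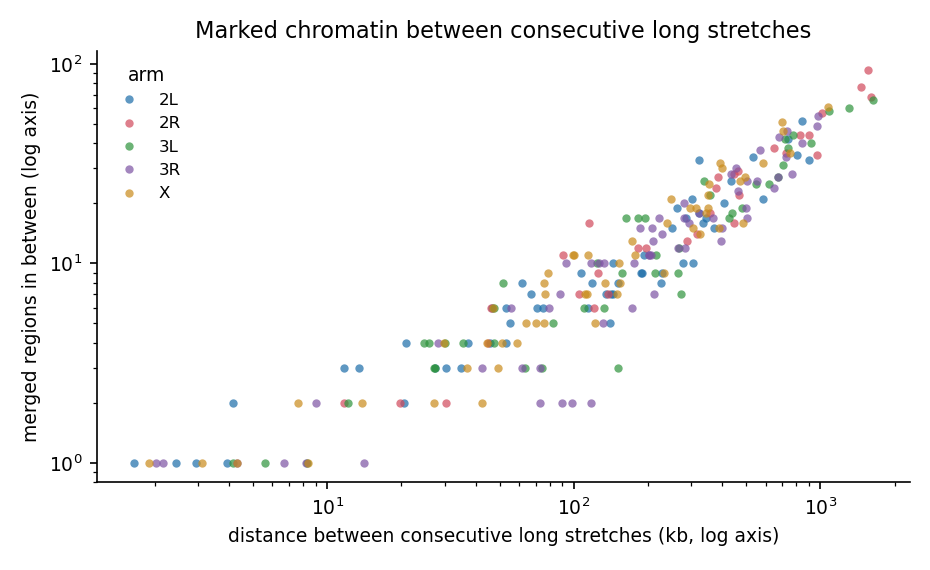
Number of merged regions (vertical log axis) against length in kb (horizontal log axis) of the 246 intervals between consecutive long stretches, coloured by arm. The 17 intervals at 1 merged region are 1.65 to 14.1 kb long, and the longest interval is 1631 kb.

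At the other end of the range, long stretches nearly touched. In 26 of the 246 intervals less than 20 kb lay between 2 long stretches, a limit chosen after the values were seen. These grouped 48 members into 22 chains, 18 of 2 members and 4 of 3 members. The longest chain lay on 2R from 15392831 to 16128400, where 2 members made up 98.4% of 735.6 kb and 2 merged regions lay between them. Next were chains of 639.4 kb on 2L from 14365936 to 15005308, broken by 1 merged region, and of 536.2 kb on 2L from 17592448 to 18128666, where 3 members were parted by 4 merged regions. In 17 of the 246 intervals a single merged region stood between 2 long stretches.

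These 17 lone regions had a median width of 4.15 kb. All but 1 were called in both replicates, and all 17 overlapped a region of the series-level list. Most regions are found in both replicates: by length class, 6.14% to 11.8% of the sides of stretches ended at a region of a single replicate. The same shares over all merged regions are not given here, so these counts do not set the lone regions apart. Taking the highest score within each, the lone merged regions had a median of 1.34 in replicate 1 (n = 17) and 1.45 in replicate 2 (n = 16). The median over all single regions of the large arms was 1.57 in each list. On 3L from 24022594 to 24030904 and on 3R from 2472253 to 2486363, the lone merged region held 2 regions of replicate 2. Weak and strong regions were both among them. The highest-scored lay on 3R from 1824945 to 1831638, with 2.10 in replicate 1 and 2.12 in replicate 2, between stretches of 138.35 and 200.04 kb. The widest was this one on 3R from 2472253 to 2486363 (14.1 kb), between stretches of 176.1 and 146.6 kb. Its score was 1.99 in replicate 1, and its 2 regions in replicate 2 scored 2.00 and 1.73.

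The 5 shortest of these intervals were narrow regions of low score. The shortest, on 2L from 17718492 to 17720141 (1650 bp), was called in replicate 1 alone, with a score of 0.396, and without it the stretches of 126.0 and 243.3 kb beside it would form 1 of 371.0 kb. The other 4 lay on X from 13891629 to 13893521 (1893 bp, score 0.423 in replicate 1 and 0.634 in replicate 2), on 3R from 19348648 to 19350664 (2017 bp, 0.546 and 0.712), also on 3R from 12634064 to 12636216 (2153 bp, 0.445 and 0.649) and on 2L from 14491489 to 14493928 (2440 bp, 0.528 and 0.799). The last of these is the left neighbour of the 511 kb stretch on 2L. On 3R the region near 12.6 Mb stood between stretches of 153.8 and 116.4 kb.

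Regions beside a long stretch had about the same median score as other regions of their list and were somewhat narrower, and regions beside stretches of 50 to 100 kb were much like them. In replicate 1 the 485 regions beside a long stretch had a median score of 1.57 with quartiles of 0.863 and 1.90, and the 3505 other regions of the large arms a median of 1.57 with quartiles of 1.07 and 1.87. In replicate 2 the 483 regions beside a long stretch had a median of 1.57 (quartiles 1.05 and 1.86), and the 3629 others 1.57 (1.14 and 1.85). The difference of medians, beside minus other, averaged 0.0014 ± 0.0023 (SD, n = 2). The lower quartile of score was lower beside long stretches than elsewhere in both lists, but this was shared with stretches of 50 to 100 kb. In replicate 1 it was 0.827 beside those, against 0.860 beside stretches of 100 to 200 kb and 0.905 beside stretches of 200 kb or more. In replicate 2 it was 1.05, 1.00 and 1.18 in the same order. Of the regions beside a long stretch, 31.5% in replicate 1 and 28.6% in replicate 2 were in the lowest-scored 25% of the list, and 27.0% and 25.7% in the highest-scored 25%.

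Median widths were 4152 bp beside a long stretch and 4677 bp elsewhere in replicate 1, and 3891 and 4297 bp in replicate 2. The difference averaged -465.5 ± 84.1 bp (SD, n = 2) and had the same sign in both replicates. Regions beside stretches of 50 to 100 kb were also narrow, with a median of 4249.5 bp in replicate 1, against 4041.5 bp for 100 to 200 kb and 4322.5 bp for 200 kb or more. In replicate 2 the 3 medians were 4043, 3829 and 3899.5 bp. Regions of 10 kb or more made up 9.69% of those beside a long stretch and 10.98% of the others in replicate 1, and 5.80% and 7.50% in replicate 2. Width and score come from the same lists as the rule, so no test was made. Spearman's rho between length and the mean score of both neighbours was -0.0080 in replicate 1 and -0.0077 in replicate 2 over 251 stretches. Between the lengths of consecutive stretches it was -0.023 over 246 pairs. These correlations are across sites of the same libraries, and each interior stretch enters 2 pairs.

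**Figure D4:**
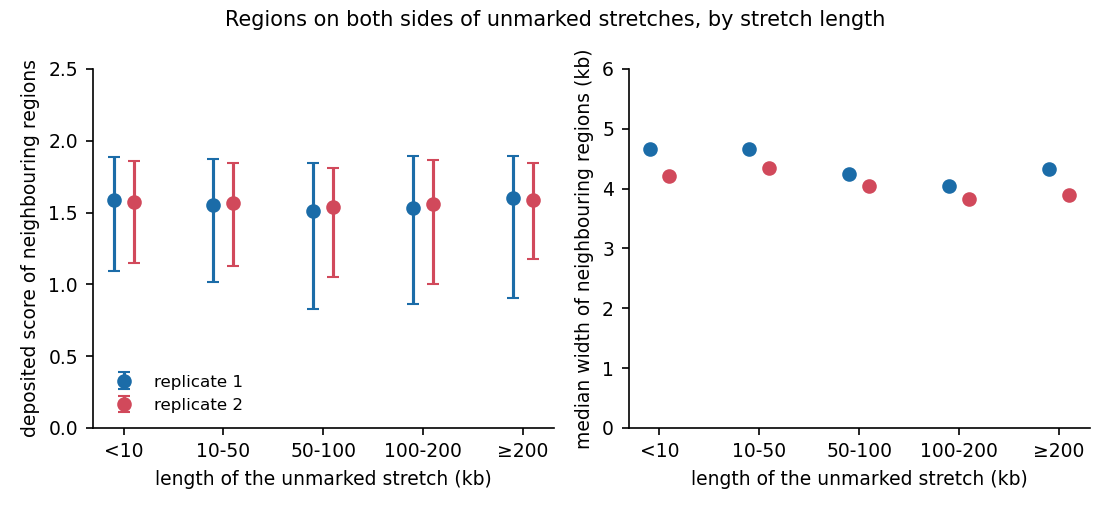
Left, deposited score (median with quartiles as bars) and right, median width in kb of the regions on both sides of each stretch, by stretch length, in replicate 1 (blue) and replicate 2 (red). Median scores lie between 1.51 and 1.603 in every length class, while median widths in replicate 1 run from 4659.5 bp for stretches of 10 to 50 kb to 4041.5 bp for those of 100 to 200 kb.

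Chromatin beside the long stretches was densely covered close by, and coverage came down to the average within 100 kb counting all bases, and by 30 to 40 kb counting only bases outside long stretches. Sides of shorter stretches were not profiled, so whether this fall is particular to long stretches was not tested. In the first 10 kb outward, regions covered 63.3% of bases in replicate 1 and 58.2% in replicate 2, a share that is high by construction since each side ends at a region. From 10 to 20 kb it was 32.2% and 29.8%, from 40 to 50 kb 24.4% and 22.3%, and from 90 to 100 kb 18.9% and 17.4%. Over the 5 large arms as a whole the share was 18.9% in replicate 1 and 17.5% in replicate 2. Other long stretches took up 3.95% of the bases in the first 10 kb and 32.9% from 90 to 100 kb. Counting only bases outside long stretches, the covered share was 35.5% and 32.9% from 10 to 20 kb, 30.5% and 28.4% from 30 to 40 kb, 27.9% and 25.4% from 50 to 60 kb, 24.8% and 22.8% from 80 to 90 kb and 28.2% and 25.9% from 90 to 100 kb, against 30.5% and 28.3% over all such bases. It was thus below that average in both replicates in every step from 40 to 110 kb. Farther out, to 200 kb, it varied on both sides of the average without settling. Examples are 30.7% and 29.0% from 110 to 120 kb, 33.7% and 31.4% from 160 to 170 kb, and 28.0% and 25.8% from 180 to 190 kb.

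**Figure D5:**
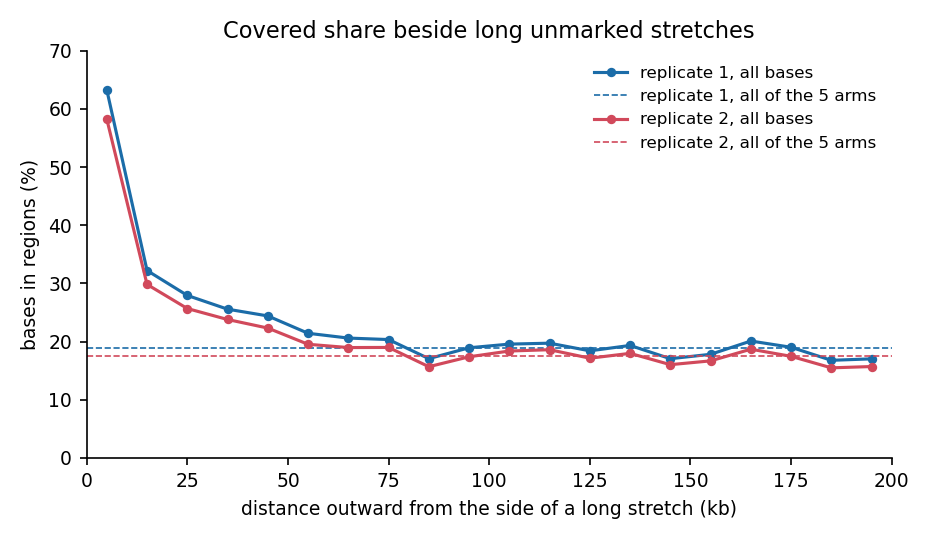
Percent of bases in regions (vertical axis) by distance in kb outward from the sides of the 251 long stretches, in 10 kb steps, for replicate 1 (blue) and replicate 2 (red); dashed lines are the shares over the 5 large arms. The share falls from 63.3% and 58.2% in the first step to near the dashed lines, at 18.9% and 17.5%, by 90 to 100 kb.

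The series-level list, which belongs to the whole series and was made from the libraries in a way the labels and headers do not state, left most long stretches empty. Of the 251 members, 219 held no complete series-level region, and 32 (12.7%) held 39 such regions, with 27 members holding 1, 3 holding 2 and 2 holding 3. Of all 4071 stretches 165 (4.05%) held one, and of the 3820 shorter ones 133 (3.48%), rising from 1.73% of stretches under 10 kb to 8.42% of those of 50 to 100 kb. Per length the order was the other way round, with 0.863 regions per Mb of long stretch against 2.72 per Mb of the shorter ones and 1.45 per Mb of those of 50 to 100 kb. By arm, 8 of 56 members had one on 2L, 8 of 46 on 3L, 7 of 56 on X, 5 of 32 on 2R and 4 of 61 on 3R. The 39 regions covered 54.3 kb, or 0.1201% of the bases in long stretches. Another 365 overlaps came from series-level regions that reached over a side, and all series-level bases together made up 0.183%. The count depends on replicate 1. Of the stretches of 100 kb or more in replicate 2 alone, 76 of 267 held a complete series-level region, against 39 of 253 in replicate 1 alone. In 246 of the 251 members a piece of 100 kb or more was free of series-level bases, and in 5 it was not.

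The series-level regions inside long stretches were small and low-scored. Their median width was 1277 bp and their median score 0.429, against 4655 bp and 1.499 over the 4178 series-level regions of the 6 chromosomes and arms. Of the 39, 35 scored below the lower quartile of that list (0.880). They made up 21.5% of the 181 series-level regions there that overlapped no replicate region, whose median score was 0.383, while the long stretches held 46.7% of the bases between merged regions. The low score was thus shared with those 181 and not particular to long stretches. The widths of those 181 and their share below 0.880 are not given here. Of the 39, 6 lay within 5 kb of a side of the stretch and 14 in its middle 50%, with a median of 26.0 kb to the nearer side. Of the 67 stretches of 200 kb or more 12 held one (17.9%), and of the 184 shorter members 20 (10.9%), which per length was 0.751 and 0.940 regions per Mb.

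A few series-level regions inside stretches stood out by score. The highest, 1.98, belonged to a region of 1279 bp on 2R from 16668468 to 16669746, inside the member from 16561779 to 16708897, although neither replicate list has a region there. Others scored 1.46 (3L from 23660670 to 23661670), 1.08 (2L from 22519762 to 22520762) and 1.02 (2R from 806462 to 807462). These 3 are each 1001 bp wide, the smallest width in the series-level list. That width was counted for 11 regions of the list, and 7 of the 39 regions share it. The fifth highest, 0.851, lay on 3L from 24414788 to 24416232.

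Counting only complete series-level regions, the most such bases lay in members near the proximal end of 3L. The member from 24374762 to 24500644 held 3 regions with 6191 bp and the member from 23345651 to 23670785 held 3 with 4541 bp. They were followed by members on 3R from 2296128 to 2472252 (2 regions, 2988 bp), on 3R from 20185567 to 20343799 (2 regions, 2584 bp) and on 3L from 12532241 to 12725886 (2 regions, 2564 bp). With the parts of regions reaching over a side included, the first 2 kept their places with 6212 and 4651 bp, and this last member came next with 3550 bp, before the 2 on 3R with 3404 and 2600 bp. The member from 24374762 was broken up most by the series-level list, which left no free piece above 41889 bp of its 125883 bp. In the other 4 broken members the longest free piece was between 82403 and 96595 bp.

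The files hold called regions without read counts, so the depth is unknown, and a stretch without a region may still carry the mark below the authors' threshold or in few cells of the embryo.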

How the data were processed

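Per the submitters' processing notes, reads were handled with Bowtie 0.12.7. The labels and headers do not state how regions were called or filtered. Coordinates are those of FlyBase release 5, per the file headers. The deposited lists give each region's start, end and a score, which is the authors' deposited score of unstated scale.

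Regions of both replicates were merged base by base on 2L, 2R, 3L, 3R, X and 4 with Python 3.11.15, numpy 2.4.6 and pandas 2.3.3, and correlations used scipy 1.17.1. Members are spaces of 100 kb or more between consecutive merged regions. A neighbour is the nearest region of a list on each side. Base composition and genes were not analysed, since no release 5 genome or annotation was used. Merging and gap finding were checked on simulated intervals. No test was made, because everything measured comes from the lists that chose the members. Named stretches are the 10 longest, the longest per arm, those at the threshold, those with the most or highest-scored series-level regions, and the shortest and longest intervals between stretches. The stretches, lists and this rule were chosen with earlier results of these data known.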

Additional observations from a re-analysis of the deposited data

How the results depend on the processing

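Values moved mostly by construction when the 100 kb limit changed. With limits of 50, 150 and 200 kb there were 524, 149 and 67 stretches, adding up to 64.6, 32.6 and 18.6 Mb, or 53.6, 27.1 and 15.5% of the chromosomes, with median lengths of 97.6, 192.3 and 243.3 kb and median intervals between them of 66.3, 365.2 and 1085 kb. The span between the highest and lowest share of a large arm was 13.4, 12.9 and 14.3 percentage points, and 55, 23 and 12 stretches held a series-level region. At 200 kb the large arm with the lowest share was 3R (9.45%) and 2R had 12.5%, whereas 2R was lowest in each other setting and 2L highest in all. Beside stretches of 200 kb or more the median score differed from that elsewhere by 0.0254 and the median width by -329.75 bp.

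With only bases covered in both replicates marking a region, 269 stretches made up 49.3 Mb or 40.9%, with a median of 162.5 kb, a longest of 566.5 kb, a median interval of 148.1 kb and an arm span of 17.3 points, and 83 held a series-level region. With the series-level list in place of the replicates, 249 stretches had a median of 154.9 kb and a longest of 558.5 kb, with an arm span of 17.0 points. With the higher-scored 50% of regions, 325 stretches made up 64.6 Mb or 53.6%, with a median of 169.5 kb, a longest of 655.9 kb, a median interval of 111.4 kb and an arm span of 13.2 points, and 19 held a series-level region. With regions of 2000 bp or more, 262 stretches made up 48.2 Mb or 40.0%, with a median of 162.3 kb, and 19 held a series-level region. Both counts of 19 are below the 32 of the main setting, although leaving out replicate regions can only widen the unmarked space. They appear to count only series-level regions that pass the same score or width limit, so they are not comparable with the 32. Counting arm ends added 1 stretch.

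With 1 replicate left out, the number ranged from 253 to 267, the sum from 45.7 to 48.8 Mb, the share from 37.9 to 40.6%, the median from 160.9 to 162.3 kb, the longest from 566.1 to 566.5 kb, the arm span from 17.5 to 18.4 points, stretches with a series-level region from 39 to 76 and the median interval from 153.2 to 179.6 kb. The order of 3L (36.7%) and 3R (35.9%) was not stable: 3R was higher without replicate 1 (41.0 against 39.1%), with bases covered in both replicates (41.3 against 39.6%), with the series-level list (35.5 against 35.0%) and with the higher-scored 50% of regions (54.9 against 54.7%). Neighbours differed by -0.0047 to 0.0014 in score and -525 to -436 bp in width. With the 3 nearest regions on each side the differences were -0.0065 and -380.25 bp. Counts were judged by ratio alone and other values by the spread between replicates. Of 147 alternative values 57 were taken as the same, moving by less than 1.5 times or by no more than that spread. The other 90 moved more. Shares of chromosome 4 that stayed at 0 are among the 57. What else may lie behind these moves was not tested. Alternatives set out for base composition and for genes were not run. No paired analysis was possible because the input libraries, which share replicate numbers with the ChIP libraries, have no values here. With no read counts, a weak mark cannot be told apart from none.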
